A study of Arabidopsis thaliana with 8 samples.

Results

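*AKINBETA1* (AT5G21170) encodes a beta subunit of SnRK1, the energy-sensing protein kinase of plants. It was taken by name from the table of deposited intensities and is 1 of 13286 genes that have a locus and a probe set of their own on the array. A single probe set reports it. In these rosettes its signal was low in the samples of 04h, 08h and 12h and high in those of 16h, 20h and 00h, with 57.9-fold between the highest and the lowest array.

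SnRK1 is a complex of a catalytic alpha subunit, a scaffolding beta subunit and a regulatory gamma subunit, and is related to yeast SNF1 and animal AMPK. It is activated when sugar is short, and it is known for switching leaf cells from growth and biosynthesis to the breakdown of reserves and for changing the expression of many genes in darkness. Beta subunits hold the complex together and influence where it sits in the cell and which proteins it meets.

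The samples were whole rosettes of *Arabidopsis thaliana*, all of the pgm mutant in the Col-0 background, 5 to 6 weeks old, with 15 rosettes pooled for each sample. The mutation removes plastidial phosphoglucomutase, so that leaves make almost no starch. All 8 arrays carry it. A wild type is not analysed here, and *PGM1*, the mutated gene, has no named probe set. The labels give 6 hours, with arrays A and B at 00h and 12h and 1 array at 04h, 08h, 16h and 20h. They give neither the hours of light nor the origin of A and B, which may be the same or different plants. P-values therefore reflect the spread from array to array and nothing more, and that spread may be technical.

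Each array gave 1 linear intensity per probe set, already scaled by the authors to a trimmed mean of 100. The median intensity lay between 29.9 and 37.6. The 2 arrays 00h A and 12h A stood apart in the 9 probe sets for spiked hybridisation controls, with means of 390.9 and 401.1 against 109.3 to 134.1 on the other 6 arrays. Of the leaf markers, *RCA*, *PRK*, *SBPASE* and *LHCB4.2* were measured, with mean intensities of 2569 to 4840 at 00h. Changes below are on the log2(intensity + 16) scale, which understates the change of dim probe sets, and an adjusted p under 0.05 in limma over 13648 tested probe sets counts as passing.

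*AKINBETA1* read 1806.3 on array A and 1372.4 on array B at 00h. It read 31.2 at 04h and 39.1 at 08h. At 12h it read 54.6 on array A and 34.4 on array B, and it then read 941.8 at 16h and 1395.9 at 20h. The 4 arrays of 04h, 08h and 12h were thus all low and the 4 of 16h, 20h and 00h all high, with no overlap and no array in between. Both 12h arrays lay below both 00h arrays, which was so for 33.0% of all tested probe sets. Arrays A and B of 1 hour differed 1.32-fold at 00h and 1.59-fold at 12h, and A was the higher at both hours.

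**Figure D1:**
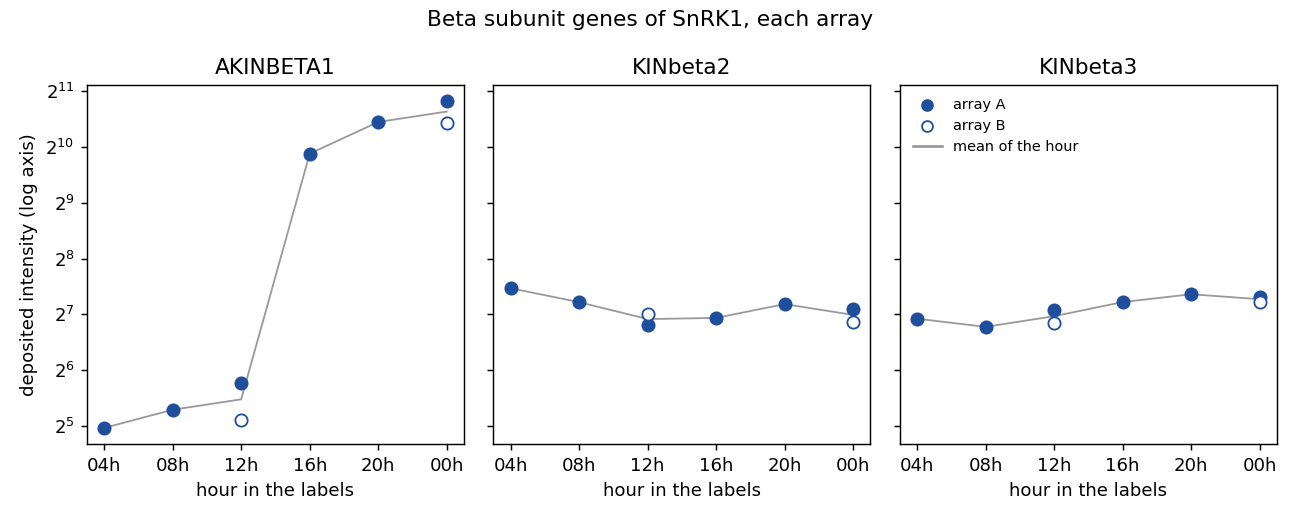
Deposited intensity on a log axis against the hour in the labels for AKINBETA1, KINbeta2 and KINbeta3, with array A filled, array B open and a line through the mean of each hour. AKINBETA1 moves between 31.2 and 1806.3 while the other 2 genes stay between 109.5 and 177.0.

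From a mean of 1589 ± 307 (SD, n = 2 arrays) at 00h the *AKINBETA1* signal was down to 44.5 ± 14.3 (SD, n = 2 arrays) at 12h, which is 35.7-fold lower. The change was -4.74 ± 0.243 on the log2 scale (SE; 95% interval -5.28 to -4.2; limma adjusted p = 1.18e-06). In this contrast 41.0% of all tested probe sets passed in either direction and 18.8% passed as lower at 12h, so a call alone is common. The size was not: 95% of probe sets changed by between -2.13 and 2.06, and *AKINBETA1* ranked 25th from the lowest. The arrays A, with high hybridisation controls, gave -4.69 and the arrays B, with low ones, gave -4.78. In a whole rosette, fewer cells holding a transcript and less of it per cell cannot be told apart.

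The deposited scaling is 1 factor for a whole array. With each array scaled to 1 median instead, the median change of all probe sets from 00h to 12h shifted by -0.163 and *AKINBETA1* changed by -4.93. Among all calls the share that was higher at 12h went from 54.2% to 42.4%.

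The low level of *AKINBETA1* was already there at 04h, the next hour measured after 00h. It was 50.9-fold lower at 04h than at 00h, a log2 change of -5.07 ± 0.298 (SE; 95% interval -5.74 to -4.41; limma adjusted p = 7.49e-06), where 27.5% of probe sets passed. From 04h to 08h the change was 0.22 (95% interval -0.54 to 0.99; limma adjusted p = 1.0; 1.09% of probe sets passed). From 08h to 12h it was 0.11 (95% interval -0.55 to 0.78; limma adjusted p = 0.997; 0.103% passed). Neither step passed, and both intervals reach beyond the log2 difference of 0.49 between A and B at 12h.

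The rise came between 12h and 16h, where the *AKINBETA1* signal went up 21.2-fold. Its log2 change of 4.01 ± 0.298 (SE; 95% interval 3.34 to 4.67; limma adjusted p = 4.39e-05) was the 28th highest, in a step where 11.3% of probe sets passed. From 16h to 20h it changed by a further 0.56 (95% interval -0.21 to 1.33; limma adjusted p = 0.999), where 0.00733% of probe sets passed. From 20h to 00h the change was 0.17 (95% interval -0.49 to 0.84; limma adjusted p = 0.971), where 0.139% passed. The 16h array lay below both 00h arrays, by 0.73 on the log2 scale against their mean (95% interval of 16h minus 00h -1.4 to -0.07), but with a limma adjusted p of 0.211 over all probe sets that difference did not pass; 4.22% of probe sets did. With the letter A or B as a replicate block it became -0.95 and passed at 0.021, and with the hybridisation control level as a block it became -0.51 and did not pass (limma adjusted p = 0.214).

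**Figure D2:**
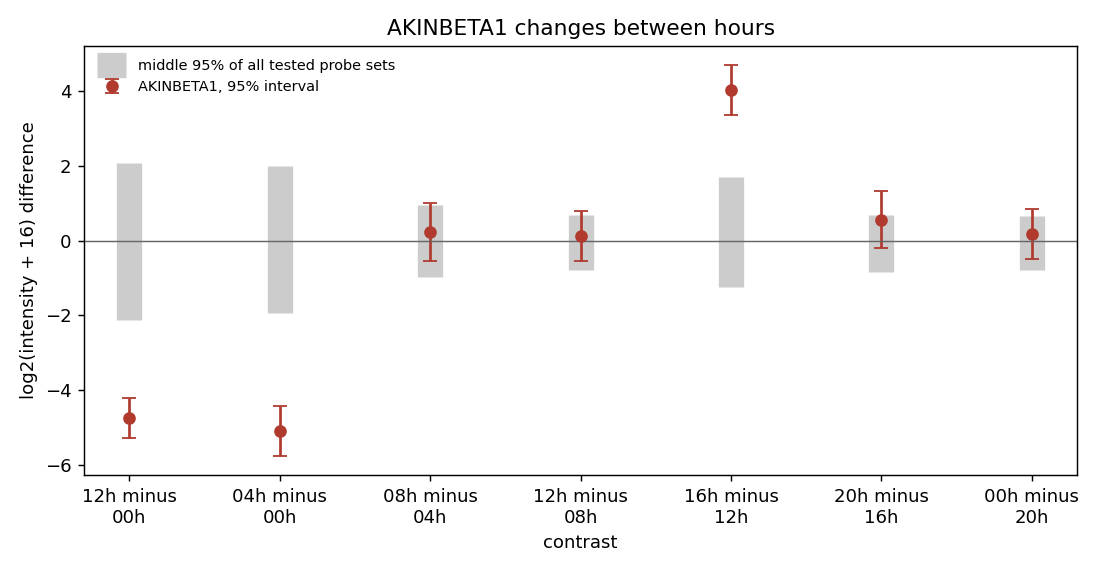
Change of AKINBETA1 on the log2(intensity + 16) scale between hours, as red points with 95% intervals, over grey bars that span the middle 95% of all tested probe sets. The fall from 00h (-4.74 at 12h, -5.07 at 04h) and the rise from 12h to 16h (4.01) lie outside the bars and the other 4 steps within them.

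Ordered by hour means, *AKINBETA1* ran 04h, 08h, 12h, 16h, 20h, 00h from low to high. Of the neighbours in that order, only 12h and 16h passed. As 16h has 1 array, the spread was taken from A and B at 00h and 12h. The same order of hour means was shown by 163 other tested probe sets and the reverse order by 363. A 24 h cosine fitted to *AKINBETA1* had an amplitude of 3.24 ± 0.367 (SE, from mid-level to peak) and a peak at 20.4 ± 0.402 h (limma F test, adjusted p = 4.02e-04), where 41.2% of probe sets passed. The smooth curve followed the jumps poorly: the 04h array lay 1.25 log2 units below it and the 08h array 0.91 above it. With 1 day sampled, recurrence on a second day was not tested.

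The pace of the 2 transitions was set beside 1621 probe sets that passed as lower at 12h by at least 1 log2 unit. Of the difference between 12h and 00h, *AKINBETA1* had regained 84.6% at 16h, while these probe sets had a median of 66.3% (quartiles 44.4% and 88.7%). At 04h *AKINBETA1* had lost 107% of that difference, against a median of 79.8% (quartiles 58.3% and 101%). Its share was above that of 71.3% of them at 16h and 82.2% of them at 04h, which is a description with no test. These probe sets were chosen by the same 00h to 12h difference that both percentages divide by. The hours 16h and 04h each had 1 array, so a faster pace cannot be concluded. The 12 named genes most like *AKINBETA1*, described below, had medians of 90.4% regained at 16h and 104% lost at 04h.

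*KINbeta2* (AT4G16360) and *KINbeta3* (AT2G28060), synonyms in the RefSeq table, are the other beta-type subunit genes. *KINbeta3* encodes a short plant form without the carbohydrate-binding stretch of the other beta subunits. *KINbeta2* read 137.2 and 116.8 at 00h, 177.0 at 04h, 148.8 at 08h, 112.5 and 128.7 at 12h, 122.4 at 16h and 145.3 at 20h. Its 04h array was the highest and its 00h and 12h arrays overlapped. *KINbeta3* read 159.1 and 149.7 at 00h, 121.2 at 04h, 109.5 at 08h, 135.6 and 114.4 at 12h, 149.0 at 16h and 164.2 at 20h. Its 4 arrays of 16h, 20h and 00h were all above its other 4, as for *AKINBETA1*, but within a 1.5-fold range.

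Neither gene passed from 00h to 12h. *KINbeta2* changed by -0.06 ± 0.214 (SE; 95% interval -0.54 to 0.41; limma adjusted p = 0.837) and *KINbeta3* by -0.28 ± 0.212 (SE; 95% interval -0.75 to 0.2; limma adjusted p = 0.329). Neither passed the rhythm test, with amplitudes of 0.16 ± 0.123 and 0.27 ± 0.103 (SE; limma adjusted p = 0.537 and 0.129). The fall of *AKINBETA1* exceeded that of *KINbeta2* by 4.67 and that of *KINbeta3* by 4.46 log2 units. In both cases the 2 arrays of 00h and the 2 of 12h were separated by more than 4 units in that difference (4.25 and 4.17), and the exact two-sided permutation p of 0.333 is the smallest that 2 arrays against 2 can give. The remaining 5 subunit genes of the list, for the alpha and gamma subunits, have no named probe set, so whether they moved with *AKINBETA1* is not analysed here.

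Likeness to *AKINBETA1* was measured as Pearson's r of the log2 values over the 8 arrays and is given as a description. Since the *AKINBETA1* arrays fall into a low and a high set of 4, r mostly records how cleanly a probe set separates the same 2 sets of arrays, and all probe sets share array, scaling and hour. Of 13647 probe sets compared, 580 (4.25%) had r of 0.95 or more and 604 (4.43%) had r of -0.95 or less. A median tested probe set had 14 and 11 such partners, and *AKINBETA1* had more than 96.6% and 97.9% of tested probe sets. Without the 16h array the second count became 1030. Of the other beta subunit genes, *KINbeta3* had r of 0.922, ranking 982nd from the highest, with its small change. *KINbeta2* had r of -0.287. The highest and lowest r, 0.9983 and -0.9974, belonged to probe sets without a single named gene. Among 7316 named probe sets the 12 highest and 12 lowest are described here.

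**Figure D3:**
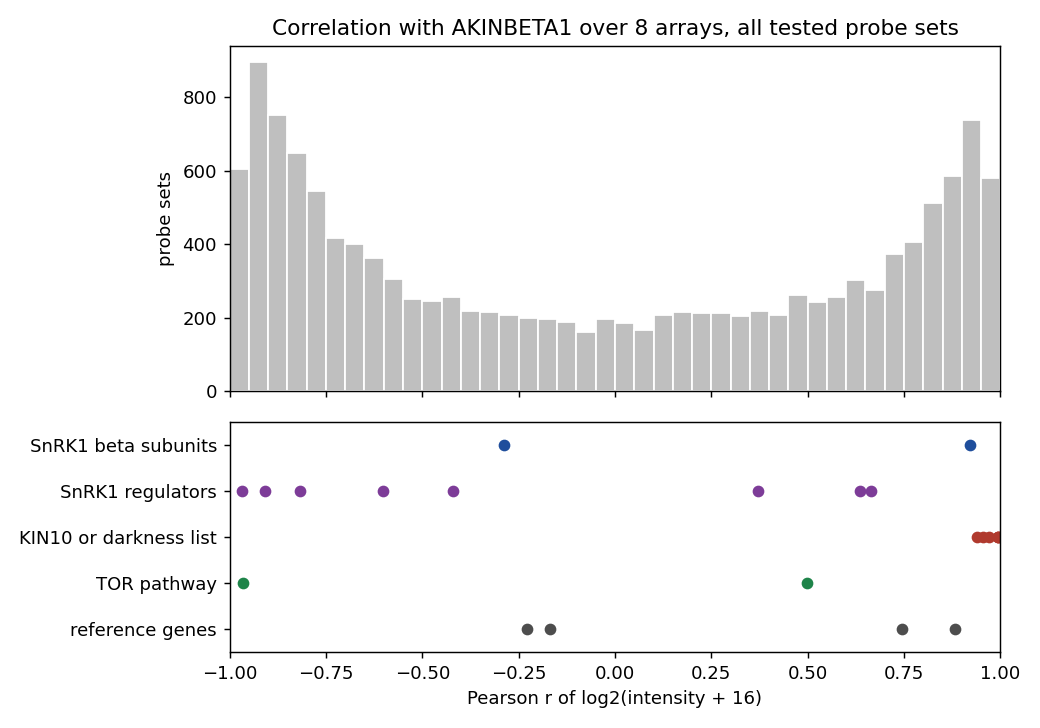
Above, the number of tested probe sets per bin of Pearson's r with AKINBETA1 over 8 arrays; below, the r of single genes of 5 lists on the same axis. The histogram is highest toward both ends, with 580 probe sets at 0.95 or more and 604 at -0.95 or less, and the KIN10 or darkness list lies between 0.94 and 0.994.

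The 12 closest genes had r of 0.994 to 0.996 and changed from 00h to 12h by between -4.6 and -0.76 on the log2 scale, with a median of -2.94. Of these 12, *MCCA* and *ATG8E* carry a symbol. *MCCA* encodes the biotin-carrying subunit of methylcrotonyl-CoA carboxylase, a mitochondrial enzyme of leucine breakdown. It read 942.6 and 812.3 at 00h, 23.6 at 04h, 21.5 at 08h, 43.7 and 22.0 at 12h, 744.8 at 16h and 1291.0 at 20h. As for *AKINBETA1*, arrays of the low and high hours did not overlap, which comes with the choice by r, but the 20h array was the highest here. Its change from 00h to 12h was -4.23 ± 0.252 (SE; limma adjusted p = 2.3e-06). *MCCA* was also the closest named gene by size: its centred profile differed from that of *AKINBETA1* by a root mean square of 0.259 log2 units over the 8 arrays.

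*ATG8E* encodes a ubiquitin-like protein that is bound to the membrane of growing autophagosomes. It read 869.2 and 989.2 at 00h, 35.3 at 04h, 41.4 at 08h, 50.1 and 43.9 at 12h, 766.8 at 16h and 695.6 at 20h. Its high arrays were more level than those of *AKINBETA1*, with 20h below 16h. The change from 00h to 12h was -3.91 ± 0.207 (SE; limma adjusted p = 1.4e-06).

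Of the closest genes known by locus alone, the one nearest in size was AT4G27450, with 1928.9 and 1654.5 at 00h, 54.6 at 04h, 60.9 at 08h, 76.2 and 43.6 at 12h, 688.2 at 16h and 1308.4 at 20h. It fell by 4.60 on the log2 scale. AT1G54740 read 582.0 and 475.2 at 00h, between 11.9 and 16.0 on the 4 low arrays, 423.0 at 16h and 515.1 at 20h, and fell by 4.2. AT1G23390 read 2356.7 and 1732.6 at 00h, between 83.8 and 156.1 on the low arrays, 1668.3 at 16h and 1790.1 at 20h, and fell by 3.96. Like *AKINBETA1*, these 3 genes had higher readings on array A than on B at 00h, a trait that is not particular to likeness. *GAPC2*, with r of -0.169, also read 4160.0 on A and 2640.4 on B, while *ATG8E* was lower on A.

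The others share the timing but not the size. AT4G17080, with the highest r among the named genes, had a mean of 254.2 ± 32.8 at 00h and 61.0 ± 11.2 at 12h (SD, n = 2 arrays each), a fall of 1.81. AT3G09085 had the smallest change of the 12, from 121.4 ± 4.1 to 65.25 ± 2.05 (SD, n = 2 arrays each), a fall of 0.76. The remaining 5, AT3G07870, AT4G19160, AT1G27300, AT1G32460 and AT2G27830, changed by -3.04 to -1.65. Over all 12 genes, 70.5% to 100% of the 00h to 12h difference was regained at 16h and 94.3% to 122% was gone at 04h. Like timing is part of how these genes were chosen, by r over the same arrays.

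**Figure D4:**
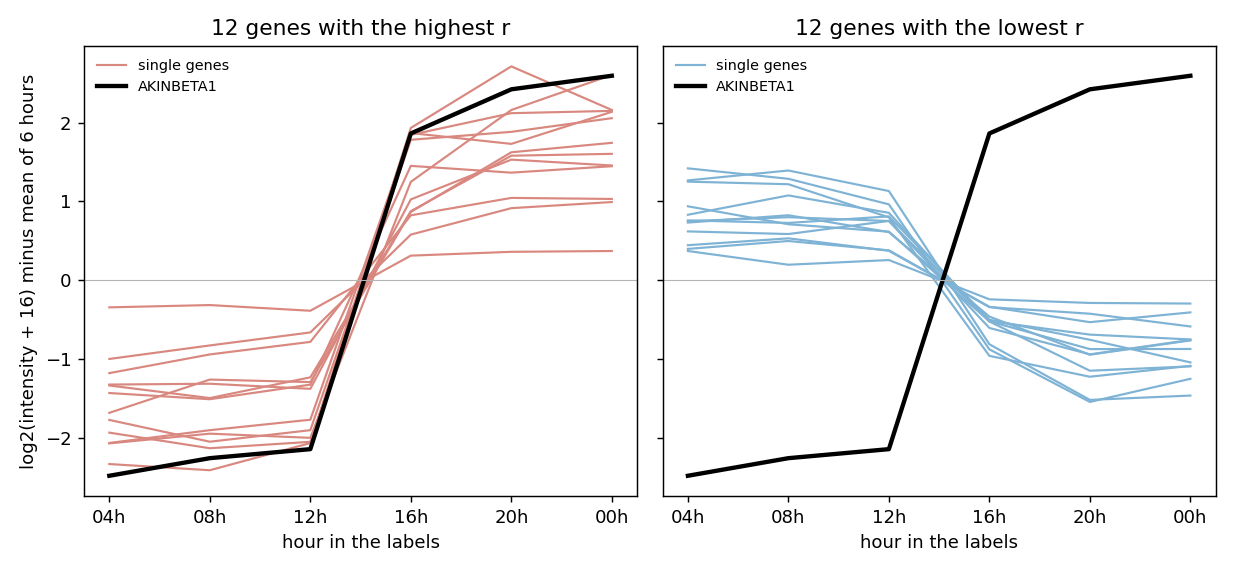
Mean log2(intensity + 16) of each hour minus the gene's mean over the 6 hours, for the 12 named genes with the highest r (left, red) and the lowest r (right, blue), with AKINBETA1 in black. The red lines rise in the same step from 12h to 16h as AKINBETA1, with changes from 0.7 to 4.0. The blue lines fall in that step, with changes of -1.94 to -0.5.

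The 12 genes that ran opposite had r of -0.995 to -0.988. From 00h to 12h their changes were 0.55 to 2.59 on the log2 scale, with a median of 1.505, all smaller in size than the *AKINBETA1* change. AT5G15980 had the lowest r, with 15.1 and 17.4 at 00h, 97.0 at 04h, 80.5 at 08h, 68.1 and 81.2 at 12h, 25.1 at 16h and 16.2 at 20h. *ALDH3F1*, which encodes an aldehyde dehydrogenase, read 93.3 and 101.4 at 00h, 276.9 at 04h, 270.2 at 08h, 288.3 and 323.0 at 12h, 117.0 at 16h and 102.2 at 20h. *PPR596*, for a mitochondrial pentatricopeptide repeat protein, read 19.4 and 17.4 at 00h, 212.1 at 04h, 232.8 at 08h, 191.5 and 191.9 at 12h, 38.0 at 16h and 17.1 at 20h. In all 3 the arrays that are high in *AKINBETA1* were the low ones, without overlap, which comes with the choice by r. *PPR596* had the largest change of the 12, at 2.59.

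Of the other opposite genes, AT3G13230 rose from 52.95 ± 7.28 to 303.1 ± 18.5 (SD, n = 2 arrays each). AT1G54820, AT2G31240, AT1G75860, AT5G65860, AT5G38890, AT5G02590 and AT3G08630 rose by 0.79 to 1.95. AT5G26710 was the one of the 12 that did not pass: it read 275.3 and 271.2 at 00h and 395.5 and 421.0 at 12h, a change of 0.55 with a limma adjusted p of 0.0517.

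As a guide to function, the 12 highest and lowest r among the 1066 probe sets with a gene symbol were listed as well, a choice made after the values had been seen. After *MCCA* and *ATG8E* the highest were *bHLH121* (r 0.991), a transcription factor of iron homeostasis, *BIK1* (0.989), a receptor-like cytoplasmic kinase of immune signalling, and *GT-1* (0.986), a trihelix DNA-binding factor. *EX1*, a plastid protein of singlet oxygen signalling, had r of 0.978. A pair of further autophagy genes, *ATG8C* and *ATG8F*, had r of 0.977 and 0.976. *ATG8F* read 2317.0 and 1789.7 at 00h and 704.0 and 488.5 at 12h. *ETFQO*, which takes up electrons from leucine breakdown and passes them to ubiquinone, had r of 0.976 and read 175.7 and 252.1 at 00h and 47.1 and 40.5 at 12h. *SIS* had r of 0.980 and was near the bottom of the scale at 12h, with 3.3 and 1.4 against 210.2 and 374.3 at 00h. *SHL1* and *AR401* complete the 12.

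On the opposite side *TBL26* (r -0.987) belongs to a family that acetylates wall polysaccharides. It read 28.8 and 20.0 at 00h, 1078.5 at 04h, 586.1 at 08h, 977.6 and 1208.9 at 12h, 34.1 at 16h and 15.3 at 20h, a log2 change of 4.78 from 00h to 12h. With its sign turned, its centred profile differed from that of *AKINBETA1* by 0.38 log2 units, the smallest such difference of all probe sets. *APL3* (r -0.986), a large subunit of ADP-glucose pyrophosphorylase at the entry to starch synthesis, read 16.1 and 14.2 at 00h and 231.1 and 335.9 at 12h. *NRPA2* (r -0.983), a core subunit of RNA polymerase I, read 57.6 and 40.6 at 00h and 182.7 and 194.6 at 12h. *UGT74B1* (r -0.974), a glucosyltransferase of glucosinolate synthesis, read 132.8 and 94.2 at 00h and 550.3 and 606.9 at 12h. The others were *RBL*, *CSLC5* of the cellulose synthase-like family, *BOB1*, *AT-HF*, *GPDHC1*, a cytosolic glycerol-3-phosphate dehydrogenase, and *IMP4* of ribosomal RNA processing, with changes of 1.01 to 1.71.

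Known SnRK1 partners and targets were then followed through lists that had been written with earlier results of these data known, so they are no independent evidence of a direction. Of 14 listed upstream kinases and regulators, 8 were tested, and from 00h to 12h 4 passed as higher, 1 as lower and 3 did not pass, with a median change of 0.68 beside 0.06 for all tested probe sets. Here 22.2% of all probe sets passed as higher. Most of the 8 are FCS-like zinc finger genes, whose proteins are known to bind SnRK1 alpha subunits. AT5G47060 read 19.9 and 24.5 at 00h, 84.1 at 04h, 140.5 at 08h, 117.8 and 115.3 at 12h, 36.5 at 16h and 27.1 at 20h. It was low on every array on which *AKINBETA1* was high (r -0.969), and it rose by 1.80 ± 0.228 on the log2 scale (SE; limma adjusted p = 1.91e-04).

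AT3G22550 also rose, from 5.0 and 19.4 to 161.0 and 80.0, by 2.26 ± 0.343 (SE; limma adjusted p = 5.68e-04; r -0.908). AT1G78020 changed by 0.82 and AT1G74940 by 0.86 (limma adjusted p = 0.0179 and 0.0334), and both calls were lost with arrays scaled to 1 median, at adjusted p of 0.0552 and 0.0744. *SIZ1*, a SUMO ligase known to modify SnRK1, fell by 0.59 (limma adjusted p = 0.0492), and this call was lost with quantile normalization at 0.063. AT4G17670, AT2G44670 and AT5G11460, with changes of 0.53, -0.46 and -0.02, did not pass, but AT2G44670 passed as lower with arrays scaled to 1 median (limma adjusted p = 0.038).

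Of 23 genes listed as known to be induced by the alpha subunit KIN10 or by darkness, 6 were tested. All 6 passed as lower at 12h than at 00h, with a median of -3.78, where 18.8% of all probe sets passed as lower. All 6 were also lower at 04h (median -4.35), where 11.6% of probe sets passed as lower. From 12h to 16h, 5 passed as higher (median change of all 6, 3.82), where 6.88% of probe sets passed as higher. Their r with *AKINBETA1* ran from 0.94 to 0.994. Besides *MCCA* and *ATG8E* these were AT3G15450, AT3G15630, *IVD* and *MCCB*. AT3G15450 read 5747.6 and 2990.4 at 00h, 40.5 at 04h, 104.5 at 08h, 104.0 and 38.1 at 12h, 2895.4 at 16h and 3133.3 at 20h. Its change from 00h to 12h was -5.69 ± 0.392 (SE), larger than that of *AKINBETA1*, and its arrays A and B also differed more.

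*IVD*, the isovaleryl-CoA dehydrogenase one step before methylcrotonyl-CoA carboxylase, read 421.7 and 657.0 at 00h, 41.9 at 04h, 50.6 at 08h, 35.2 and 67.1 at 12h, 203.8 at 16h and 513.3 at 20h. Its 16h array was intermediate. *MCCB*, the other subunit of the carboxylase, read 350.3 and 281.4 at 00h, 139.9 at 04h, 157.8 at 08h, 172.1 and 184.0 at 12h, 280.4 at 16h and 429.9 at 20h. It had the smallest change of the 6, -0.77 ± 0.211 (SE; limma adjusted p = 0.0152), did not pass from 12h to 16h (0.61; limma adjusted p = 0.166), and was not called from 00h to 12h without array 00h A.

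**Figure D5:**
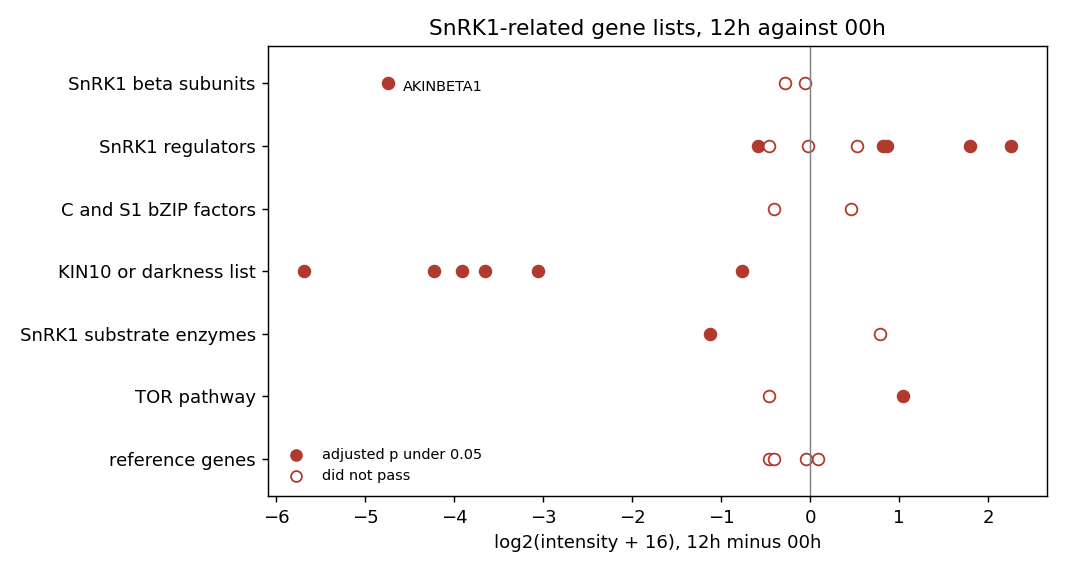
Change from 00h to 12h on the log2(intensity + 16) scale for AKINBETA1 and the tested members of the SnRK1-related and reference lists, filled where the limma adjusted p was under 0.05 and open where not. AKINBETA1 (-4.74) lies apart from the other beta genes (-0.06 and -0.28) and inside the span of the KIN10 or darkness list (-5.69 to -0.77).

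Of 9 listed C and S1 group bZIP factors, transcription factors through which SnRK1 is known to act, 2 were tested. *bZIP44* and *BZIP53* changed by 0.46 and -0.41 from 00h to 12h and did not pass (limma adjusted p = 0.165 for both). From 00h to 04h both passed, *bZIP44* as higher with a change of 0.91 and *BZIP53* as lower with a change of -1.01 (limma adjusted p = 0.0481 and 0.0209). In that step 15.8% of all probe sets passed as higher, 11.6% as lower and 27.5% in either direction. *BZIP53* read 396.6 and 407.2 at 00h, 191.7 at 04h, 218.6 at 08h, 346.9 and 255.5 at 12h, 673.7 at 16h and 351.1 at 20h, so its 16h array was the highest. Of 9 listed enzymes that SnRK1 phosphorylates, 2 were tested. *F2KP*, which makes and breaks fructose 2,6-bisphosphate, fell by 1.13 ± 0.267 (SE; limma adjusted p = 0.00714), where 18.8% of all probe sets passed as lower. Its r of 0.879 lay within the r of the reference genes below, which ran from -0.229 to 0.883. *ATSPS4F*, a sucrose phosphate synthase, changed by 0.79 without passing (limma adjusted p = 0.066), and passed with quantile normalization at 0.0497.

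The TOR kinase is known as the growth-promoting counterpart of SnRK1, and 2 of 6 listed TOR pathway genes were tested. *RAPTOR2* read 16.2 and 17.2 at 00h, 47.2 at 04h, 38.9 at 08h, 52.8 and 50.5 at 12h, 25.5 at 16h and 17.3 at 20h. It ran opposite to *AKINBETA1* (r -0.964), as did the 4.43% of probe sets with r of -0.95 or less. It rose by 1.05 ± 0.222 from 00h to 12h (SE; limma adjusted p = 0.00386), where 22.2% of all probe sets passed as higher. *RAPTOR1* changed by -0.46 without passing (limma adjusted p = 0.123), but passed as lower with arrays scaled to 1 median (0.0475). No gene of the 16 listed for trehalose 6-phosphate, a sugar signal that inhibits SnRK1, has a named probe set.

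In the steps from 04h to 08h, 08h to 12h, 16h to 20h and 20h to 00h, no tested member of any of these lists passed. Few of all tested probe sets passed there either, at 1.09%, 0.103%, 0.00733% and 0.139% in that order. Of 4 reference genes none passed from 00h to 12h, where 41.0% of all probe sets passed. AT4G34270 and *PEX4* changed by -0.46 and -0.41, *GAPC2* by -0.05 and AT2G28390 by 0.09, the last turning to -0.09 with arrays scaled to 1 median, where AT4G34270 passed as lower.

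Markers of other cells and of handling were read beside these results. *PYK10*, a root gene, read 300.0 and 271.8 at 00h, 134.4 at 04h, 89.3 at 08h, 120.2 and 126.8 at 12h, 113.7 at 16h and 160.3 at 20h. Its change from 00h to 12h was -1.11 ± 0.206 on the log2 scale (SE; limma adjusted p = 0.00183; r 0.709 with *AKINBETA1*). From 12h to 16h, where *AKINBETA1* rose, *PYK10* changed by -0.1. *STZ*, a zinc finger gene that responds to touch and wounding, read 133.9 and 146.6 at 00h, 39.0 at 04h, 26.2 at 08h, 44.1 and 23.7 at 12h, 170.9 at 16h and 152.9 at 20h. It was thus high on the same arrays as *AKINBETA1* (r 0.967; change -1.68 ± 0.259, SE; limma adjusted p = 6.33e-04). *SWEET11*, a phloem marker, and *FMA*, a guard cell marker, changed by -0.48 and 0.11 without passing, the latter turning to -0.05 with arrays scaled to 1 median. Of 4 leaf markers *LHCB4.2* passed as lower at 12h (-0.84; limma adjusted p = 0.0449). *RCA* (-0.79) and *PRK* (-0.42) did not, but with quantile normalization both passed as lower, with changes of -0.82 and -0.44 (limma adjusted p = 0.00201 and 0.0359). The other handling and flower markers and *SUC2* have no named probe set. A sign of RNA quality moved with the profile as well. The ratio of the 3' to the 5' actin control probe sets was 4.861 and 5.73 at 00h, 8.485 at 16h and 7.31 at 20h. It was 9.609 at 04h, 16.35 at 08h and 9.592 and 12.91 at 12h, so all 4 arrays with low *AKINBETA1* had a higher actin ratio than the 4 with high *AKINBETA1*. The GAPDH and ubiquitin ratios of these 2 sets of arrays overlapped. The part of *PYK10*, *STZ*, the leaf markers and the actin ratio in the *AKINBETA1* profile and in the genes that follow or oppose it was not tested.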

How the data were processed

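Labelled cRNA of pooled rosettes was hybridised to 8 one-colour Affymetrix arrays. The deposited values are linear intensities, 1 per probe set and array, summarised with MAS5 per the submitters' processing notes. With 2% of the values trimmed from either end, each array had a mean of 100. Of 22810 probe sets, 64 controls were left out, and the 40% with the lowest mean of the remaining 22746 were not tested. Values were taken as log2(intensity + 16). The platform's gene table names 1 gene for 13513 probe sets, more than 1 for 503 and no gene for 8730. Only the first kind is named here. Symbols came from RefSeq (TAIR10.1), where 13436 matched a locus. No sequence or coordinate is used.

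Hours were compared in 1 limma 3.58.1 fit (R 4.3.3; lmFit, contrasts.fit, eBayes with intensity trend) over 8 arrays with the hour as a factor, and the rhythm by a joint F test of 24 h cosine and sine terms. P-values were adjusted by Benjamini-Hochberg over all tested probe sets, with a threshold of 0.05. The spread was estimated from A and B at 00h and 12h and taken to hold at the other hours, and the number of arrays limits the precision. Tables were handled in Python 3.11.15 with pandas 2.3.3, numpy 2.4.6 and scipy 1.17.1, and figures drawn with matplotlib 3.10.9. The tests were tested on simulated data with noise drawn independently for each array, so features shared by the A arrays were not covered.

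Named genes are *AKINBETA1*, the SnRK1 subunit genes with a probe set, the 12 highest and 12 lowest r, up to 4 members of each list with the largest statistic, and markers. Where a gene has several probe sets, its list uses the brightest, and a count of members was followed by all of them where few were tested. The gene, its lists and these rules were chosen with earlier results of these data known. The alternatives were pseudocounts of 1 and 64, no filter or 60% left out, median scaling, quantile normalization, no intensity trend, the replicate letter or the hybridisation control level as a block, leaving out each array, and for r also hour means and Spearman's rho. Added after seeing the data were the root mean square difference, the choice of genes with symbols and the comparison within pairs of arrays of like hybridisation controls.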

Additional observations from a re-analysis of the deposited data

How the results depend on the processing

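The 12h vs 00h change of *AKINBETA1* kept its direction and passed under all 14 alternatives, from -5.15 to -3.92 with limma adjusted p of at most 0.00158. So did the change from 00h to 04h (-5.61 to -4.11), the change from 12h to 16h (3.22 to 4.41) and the amplitude (2.64 to 3.70). *KINbeta2* and *KINbeta3* passed neither the 12h vs 00h nor the rhythm test under any alternative run. The labels do not say what the letters A and B stand for. A minus B at 00h correlated with A minus B at 12h at 0.2948 over 13648 probe sets, and both A arrays had the high hybridisation controls, so arrays of 1 letter had measured features in common at these hours. With 2 pairs this does not show whether the letters pair plants or batches. With the replicate block, *AKINBETA1* changed by -4.74 from 00h to 12h (limma adjusted p = 1.75e-10), its amplitude was 3.24 (0.00139), and its 16h minus 00h difference of -0.73 became -0.9514 and passed (0.021). With the hybridisation control level as a block that difference was -0.51 and did not pass (0.214). Under the replicate block its other calls did not change. The likeness counts depend most on the measure. At 0.95 or more 580 became 888 with hour means and 130 with Spearman's rho. At -0.95 or less 604 became 963 and 200, and 603 to 1030 when single arrays were left out, the latter without 16h. Of 700 alternative r values of 44 named genes, 663 stayed past 0.95 in size, 37 did not (35 of them Spearman's rho) and none changed sign. The numbers of called probe sets moved from 3747 to 2272 with no filter for 04h vs 00h. Over the alternatives they ran from 0 to 468 for 08h vs 04h, 0 to 181 for 12h vs 08h, 0 to 109 for 20h vs 16h and 0 to 135 for 00h vs 20h, each 0 with no filter and highest with the replicate block. For 16h vs 12h they were 358 with no filter, 2812 with the replicate block and 2579 with the hybridisation control level as a block. The cause was not tested. The limma fit has 2 residual degrees of freedom of its own, and 4 of the 6 hours rest on 1 array, so small steps cannot be resolved.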

Other observations

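Several probe sets matched *AKINBETA1* in size as well as timing when the root mean square difference of centred log2 profiles was used, a measure chosen after seeing the data. Under 0.5 log2 units there were 18 probe sets that followed it and 2 that ran opposite. Of the 12 closest named genes by this measure, 5 were also among the 12 highest r. AT5G19120 read 1978.8 and 1986.6 at 00h, 28.3 at 04h, 32.4 at 08h, 34.6 and 54.1 at 12h, 1555.3 at 16h and 1758.4 at 20h, a change of -5.07 from 00h to 12h. AT1G68440 read 2042.2 and 1265.6 at 00h, 79.2 at 04h, 17.9 at 08h and 40.9 and 46.6 at 12h, so 04h was the highest of its low arrays. AT1G72060 read 2507.0 and 2307.3 at 00h, 130.3 at 04h, 32.9 at 08h, 43.3 and 25.5 at 12h, 772.2 at 16h and 1509.0 at 20h. Its reading was lower at 08h than at 04h, where that of *AKINBETA1* was slightly higher, with 1 array at each of these hours and no test of the difference. AT3G15630 read 1426.1 and 1052.1 at 00h, 15.4 at 04h, 58.4 at 08h, 95.9 and 71.4 at 12h, 1922.9 at 16h and 1727.8 at 20h, with its highest array at 16h.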
